A study of Mus musculus with 9 samples.

Results

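The 8 genes described here are Fos, Fosb, Fosl2, Jun, Junb, Jund, Atf3 and Batf, members of the AP-1 and ATF group of basic leucine zipper transcription factors. They were chosen by name, and their probes were found through the RefSeq accession that the array files give for each probe. The 8 genes had 9 probes between them (Fosl2 had 2, every other gene 1), and all 8 were among the 20282 genes tested, of which 12285 could be named by a symbol. Atf3 passed the filter on dim probes, which asked for 2 arrays well above background, through the CD8 single-positive arrays alone. AP-1 is a dimer of a Fos-family and a Jun-family protein, and it binds DNA through the paired basic regions. Fos, Fosb, Junb and Atf3 are immediate early genes, switched on within minutes by receptor signalling or by stress and switched off soon afterwards, whereas Jund is present in most resting cells. In thymocytes these factors act below the T cell receptor together with NFAT proteins, and Batf pairs with Jun proteins and IRF4 to open lymphocyte gene regions.

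The study asked what loss of Brd1, a scaffold protein of a histone acetyltransferase complex, does to developing T cells. The cells were thymocytes of C57BL/6 mice, separated on CD4, CD8 and the T cell receptor beta chain (TCRβ), and RNA was hybridised to 1-colour arrays, with 1 array in each of 9 groups. Every group carried Tie2-Cre, which acts in endothelial cells and in blood-forming cells. The control arrays (Brd1+/+, Tie2-Cre) and the conditional knockout arrays (CKO: Brd1flox/flox, Tie2-Cre) held CD4+CD8+ double-positive (DP), CD4 single-positive (CD4SP) and CD8 single-positive (CD8SP) thymocytes of mice aged 8 weeks. A further CKO array held CD4SP cells without surface TCRβ, also at 8 weeks, with no control. The last pair held CD8SP cells of control and CKO mice aged 14 weeks that also carried OT-I (spelled OT-l in the labels), a transgenic T cell receptor that sees an ovalbumin peptide. With 1 array a group there was no replicate, so the number of arrays limits the precision of every value, and how many mice gave each sample is not given in the sources used here.

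Levels are given as log2 of the processed signal relative to the 75th percentile of that array, so a level of 0 equals that percentile. A level of 1 probe is compared between arrays and never with another probe. The share of probes well above background ran from 39.0% to 45.9% over the arrays. Cd4 and Cd8a followed the sort: the Cd4 level was 6.19 to 6.54 on the DP, CD4SP and TCRβ-negative arrays and 3.14 to 3.50 on the CD8SP and OT-I arrays, and the Cd8a level was -2.11 to -0.32 on the CD4SP and TCRβ-negative arrays and 4.60 to 5.46 elsewhere. Brd1 itself was not lower on the CKO arrays, with CKO minus control differences of 0.46 (DP), 0.10 (CD4SP), 0.64 (CD8SP) and 0.61 (OT-I) on the log2 scale. Where its probe lies relative to the deleted part was not known here, so it does not check the labels, and control and CKO below mean the arrays labelled so. Slide 1 held 6 arrays, and slide 2 held the CD8SP CKO array and both OT-I arrays.

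Promoter sequences are shown first, as letters only, for the genes with a match just before their start to a motif searched. The motifs were those of AP-1, ATF, CREB or Jun-type dimers or a part of one. The Jun match was fixed in advance, and no share of all windows stands beside this choice of genes. The sequences are from RefSeq (mouse build GRCm38.p6), and all 8 genes matched an entry. Each line is the 130 bases before the start of the gene, 5′ to 3′ on the strand of the gene, and capitals mark a motif match on either strand. The windows are chr12:85473760-85473889 (plus strand) for Fos, chr7:19310046-19310175 (minus) for Fosb, chr8:84978749-84978878 (minus) for Junb, chr4:95052223-95052352 (minus) for Jun, chr1:191183334-191183463 (minus) for Atf3 and chr12:85686590-85686719 (plus) for Batf.
Fos: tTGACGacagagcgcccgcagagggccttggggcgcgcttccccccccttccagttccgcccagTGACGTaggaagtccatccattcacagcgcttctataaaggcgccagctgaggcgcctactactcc
Fosb: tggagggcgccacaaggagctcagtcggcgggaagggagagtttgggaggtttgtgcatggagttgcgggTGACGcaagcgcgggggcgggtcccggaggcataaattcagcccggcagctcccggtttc
Junb: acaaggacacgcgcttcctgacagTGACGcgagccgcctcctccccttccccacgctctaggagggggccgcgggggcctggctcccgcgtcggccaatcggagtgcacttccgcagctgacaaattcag
Jun: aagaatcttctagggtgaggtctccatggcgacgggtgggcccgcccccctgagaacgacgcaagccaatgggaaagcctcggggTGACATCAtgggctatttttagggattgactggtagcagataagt
Atf3: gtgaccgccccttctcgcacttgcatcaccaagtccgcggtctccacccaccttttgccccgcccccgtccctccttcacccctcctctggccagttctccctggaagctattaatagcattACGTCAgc
Batf: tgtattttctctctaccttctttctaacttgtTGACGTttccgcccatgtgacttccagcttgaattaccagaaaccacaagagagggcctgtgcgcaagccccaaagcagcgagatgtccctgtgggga

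The 5 motifs searched on both strands were the AP-1 site TGACTCA, the cyclic AMP response element TGACGTCA, its parts TGACGT and TGACG, which lie within it and within each other, and TGACATCA, a site known from the Jun promoter. TGACGT was in 3 of the 8 windows, starting 66 bases before the start of Fos, 98 before that of Batf and, on the opposite strand, 8 before that of Atf3. The shorter TGACG was in 5 windows, those 3 and those of Fosb and Junb. TGACATCA was in the Jun window, 45 bases before the start, a match fixed in advance because that motif was taken from the Jun promoter. Neither TGACTCA nor the whole TGACGTCA was in any of the 8 windows. The share of all windows with any of the 5 motifs was not computed. Over 32851 RefSeq windows of the same length, TGACG was found in 12.2%, TGACGT in 4.75%, TGACTCA in 2.49%, TGACATCA in 2.19% and TGACGTCA in 1.3%. None of these letters was in the windows of Fosl2 and Jund, which are not shown. A match is a description of the letters only.

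Fos, Fosb, Junb and Jund were higher on the CKO array than on the control array in all 4 pairs, except that the DP difference of Jund turned negative under 2 other scalings, and Jun was lower in 3 of 4. None of the 8 passed the test for an effect of genotype, so these are differences between single arrays whose direction repeats across populations. The question was whether CKO differed from control once the population was accounted for. A limma fit over all 9 arrays had an additive term for each of population and genotype, and its p-values were adjusted by Benjamini-Hochberg over all 20282 genes. It called 0 of 8 members at an adjusted p below 0.05, against 57 of all genes tested (0.281%; 0.0394% higher and 0.242% lower). Of those 57 genes 8 were higher and 49 lower on CKO arrays, and with arrays scaled on the probes well above background everywhere 1 was higher and 31 lower. At an unadjusted p below 0.05 it gave 3 members (Fos, Fosb and Junb) and 2218 genes (10.9%).

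**Figure D1:**
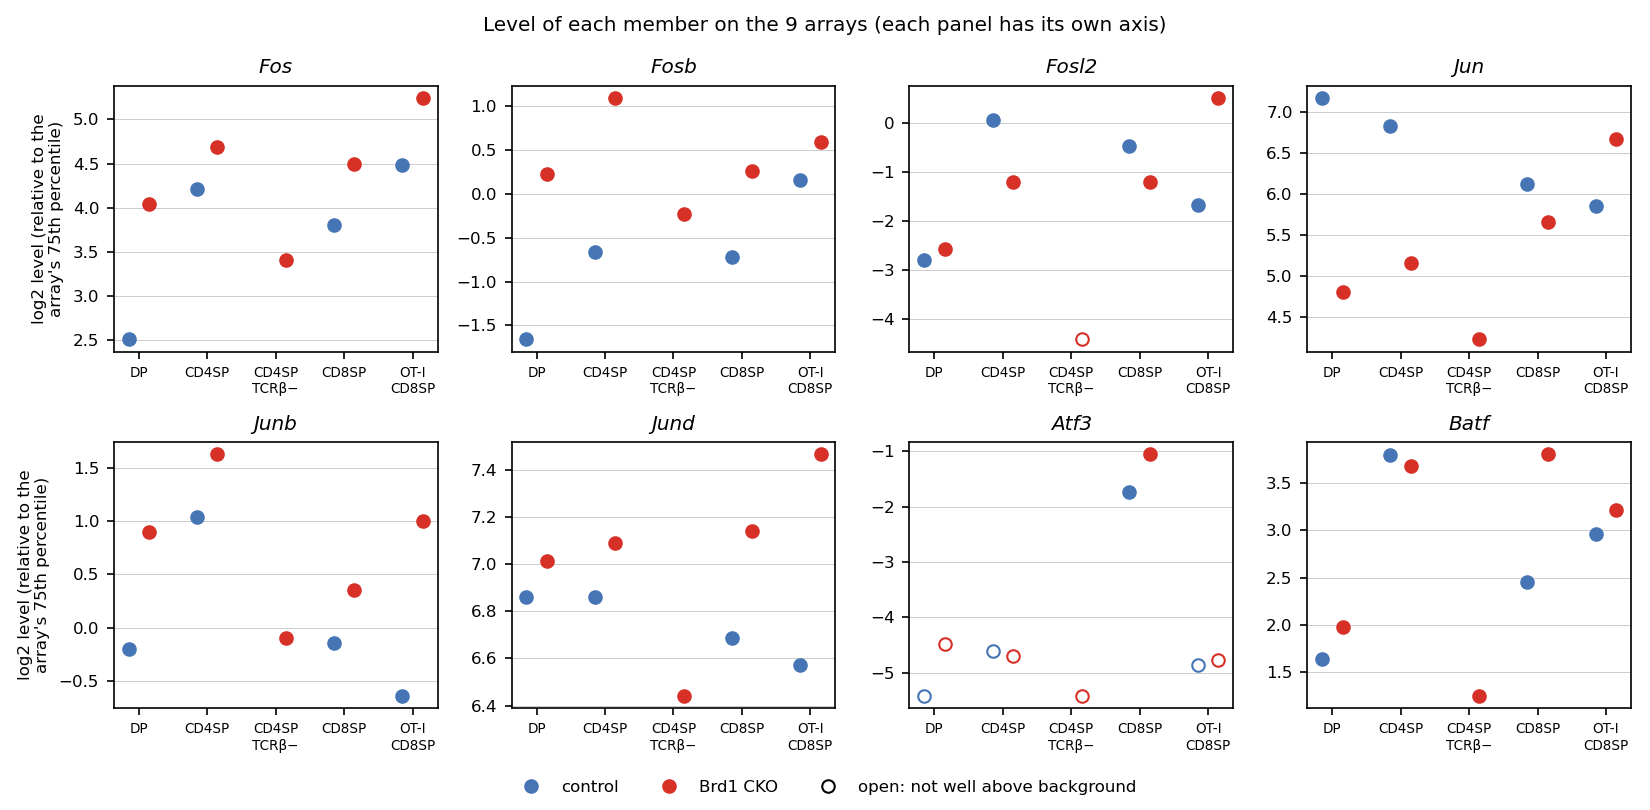
Log2 level of each of the 8 genes (y axis, relative to the 75th percentile of the array) on the 9 arrays, grouped by sorted population (x axis). Blue points are control and red points are CKO arrays, and open points were not well above background. In Fosb and Jund the 4 red points of the paired populations all lie above the 4 blue ones, and Atf3 is filled only on the CD8SP arrays.

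Fos, the founding partner of Jun in AP-1, had levels of 2.51 (DP), 4.22 (CD4SP), 3.80 (CD8SP) and 4.48 (OT-I) on the control arrays. On the CKO arrays it had 4.04, 4.69, 4.50 and 5.24 in the same order, and 3.41 on the TCRβ-negative array. The DP control array was the lowest of the 9 and the OT-I CKO array the highest, and the control and CKO arrays overlapped. CKO minus control was 1.53 (DP), 0.48 (CD4SP), 0.70 (CD8SP) and 0.76 (OT-I). The fitted genotype estimate was 0.87 (SE 0.24, adjusted p = 0.3).

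Fosb, a Fos relative with a similarly brief response, had levels of -1.66, -0.66, -0.72 and 0.16 on the DP, CD4SP, CD8SP and OT-I control arrays. The CKO arrays had 0.22, 1.09, 0.26 and 0.59, and the TCRβ-negative array -0.23. Every CKO array of the 4 pairs lay above every control array, although the lowest CKO level (0.22) and the highest control level (0.16) were close. The pair differences were 1.88 (DP), 1.75 (CD4SP), 0.97 (CD8SP) and 0.42 (OT-I). The genotype estimate was the largest of the 8 in either direction, 1.26 (SE 0.30, adjusted p = 0.246).

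Junb, which binds Fos proteins and is known to restrain Jun in many settings, had levels of -0.20, 1.04, -0.14 and -0.64 on the control arrays in the same order. The CKO arrays had 0.90, 1.63, 0.35 and 1.00, and the TCRβ-negative array -0.09. The CD4SP control array lay among the CKO arrays, so the groups overlapped. The genotype estimate was 0.95 (SE 0.26, adjusted p = 0.293), with pair differences of 1.1, 0.59, 0.49 and 1.64.

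Jund, the steady Jun-family member, was the flattest of the 8, with all 9 arrays between 6.44 (TCRβ-negative) and 7.47 (OT-I CKO). The control arrays had 6.86, 6.86, 6.69 and 6.57 and the CKO arrays 7.02, 7.09, 7.14 and 7.47, without overlap. Fosb and Jund were thus 2 of 8 genes whose 4 CKO arrays all lay above the 4 control arrays, as did 1.76% of all genes tested. This depended on the scaling. With a normexp background correction the Fosb groups overlapped (0.04 on the CD8SP CKO array, 0.06 on the OT-I control array). The Jund groups overlapped under quantile normalization and when arrays were scaled on the probes well above background everywhere. No member had the 4 CKO arrays all below the control arrays, against 1.55% of genes. The genotype estimate of Jund was 0.43 (SE 0.21, adjusted p = 0.508). Its DP difference of 0.15 was smaller than the all-gene median of that pair (0.17), and it turned to -0.07 when arrays were scaled on the probes well above background everywhere and to -0.12 under quantile normalization.

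Jun, the DNA-binding partner of the Fos proteins and a target of the JNK kinases, had levels of 7.17 (DP), 6.83 (CD4SP), 6.12 (CD8SP) and 5.86 (OT-I) on the control arrays. The CKO arrays had 4.81, 5.16, 5.66 and 6.68, and the TCRβ-negative array, the lowest of all, 4.23. CKO was lower by 2.36 in DP, 1.67 in CD4SP and 0.46 in CD8SP, and higher by 0.82 in OT-I. The genotype estimate was -0.92 (SE 0.53, adjusted p = 0.555). An added term for the OT-I pair against the other 3 pairs gave a difference of 2.32 (SE 0.81, adjusted p = 0.536), and none of 20282 genes passed that test (0%), against 1685 at an unadjusted p below 0.05. The OT-I pair differs from the others in receptor, age and slide at once, and these cannot be told apart. Stage markers differed in the OT-I pair as well. DP-stage markers had a median CKO minus control of -3.07 there, against 0.13 (DP), 1.5 (CD4SP) and -0.78 (CD8SP) in the other pairs. Proliferation markers had -3.60 against -0.28, 0.08 and -1.54, and mature markers 1.95 against 1.15, 0.27 and 1.48. The part of these markers in the OT-I differences of Jun and Fosl2 was not tested.

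Fosl2, a slower Fos-family member, had levels of -2.79, 0.05, -0.47 and -1.68 on the control arrays and -2.57, -1.20, -1.21 and 0.50 on the CKO arrays. On the TCRβ-negative array it was not well above background (-4.42 measured). CKO was lower by 1.26 in CD4SP and 0.74 in CD8SP and higher by 0.22 in DP and 2.18 in OT-I. The genotype estimate of 0.10 (SE 0.57, adjusted p = 0.952) therefore joined opposite differences, and it became -0.59 without the OT-I pair or without either OT-I array. The difference between the OT-I pair and the others was 2.77 (SE 0.69, adjusted p = 0.381). These values are from 1 of 2 Fosl2 probes, since the other was not well above background on any array.

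Batf, an AP-1 partner without a transactivation domain that lymphocytes use with IRF4, had levels of 1.64, 3.80, 2.45 and 2.96 on the control arrays. The CKO arrays had 1.97, 3.69, 3.81 and 3.22, and the TCRβ-negative array 1.24. The pair differences were 0.34, -0.12, 1.36 and 0.26, so most of the genotype estimate of 0.46 (SE 0.28, adjusted p = 0.572) came from the CD8SP pair, whose arrays lie on different slides. Atf3, which represses or activates stress genes depending on its partner, was well above background only on the CD8SP arrays, with levels of -1.73 (control) and -1.06 (CKO). Its difference of 0.67 there was the only difference of a pair in which both arrays measured it, and its genotype estimate of 0.40 (SE 0.24, adjusted p = 0.57) takes in values below background from the other 3 pairs.

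**Figure D2:**
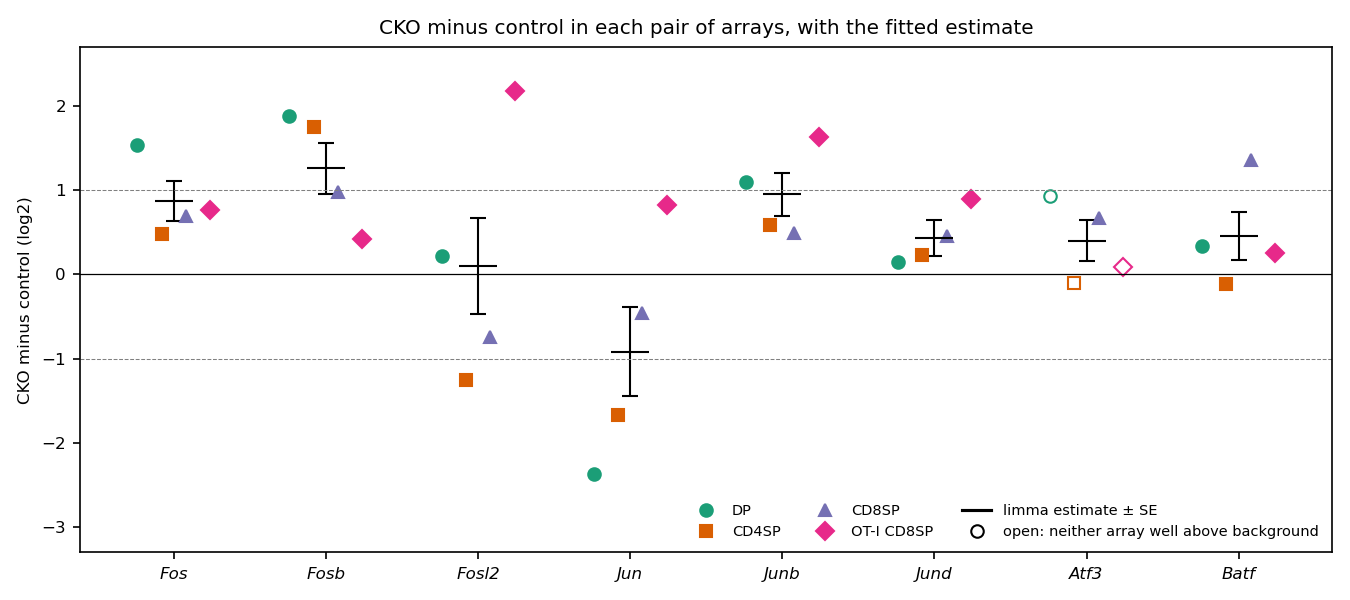
CKO minus control (y axis, log2) of each gene in the 4 pairs of arrays, with the fitted genotype estimate and its SE in black. Dashed lines mark a 2-fold difference, and open points are pairs in which neither array was well above background. Fos, Fosb and Junb lie above 0 in every pair, while Jun runs from -2.36 in DP to 0.82 in OT-I.

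Past 2-fold, the DP pair had Fos, Fosb and Junb higher and Jun lower, against 4.85% of genes higher and 7.57% lower. The CD4SP pair had Fosb higher and Fosl2 and Jun lower, against 6.65% and 5.5%. The CD8SP pair had only Batf higher and none lower, against 9.31% and 10.1%. The OT-I pair had Fosl2 and Junb higher and none lower, against 10.1% and 15.6%. A count of 4 of the 8 genes was higher on the CKO array in all 4 pairs, as were 10.6% of all genes tested, and none was lower in all 4, against 8.32%. With arrays scaled on probes well above background everywhere, the all-gene median moved from 0.17 to -0.05 in the DP pair and from -0.08 to 0.20 in the OT-I pair. Under that scaling, genes past 2-fold numbered 672 higher and 2104 lower in DP (974 and 1521 in the main scaling), 2166 and 1477 in CD8SP (1733 and 1875), and 2952 and 2083 in OT-I (1879 and 2899). Fos, Fosb and Junb stayed above 0 in all 4 pairs, and Jun below 0 in DP, CD4SP and CD8SP, under each of the 5 alternative treatments of the signal.

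Markers of maturity moved in the same direction as these 3 genes. All 7 mature thymocyte markers had a positive genotype estimate (median 1.1), and none was called. Their log2 summed level ran from 5.55 to 9.49 on the control arrays and from 6.44 to 10.0 on the 4 paired CKO arrays, and all 7 were well above background on every array. None of 8 proliferation markers had a positive estimate (median -1.26, none called), with log2 sums of 4.79 to 8.41 on control and 4.88 to 7.35 on CKO arrays. Their part in the member differences was not tested. In such sorted samples a change in the share of cells that carry a transcript and a change in transcript per cell cannot be told apart.

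Across the maturation step from DP to CD4SP, the 7 genes measured in either population had a positive difference, with a median of 0.98 against -0.002 over all genes tested, and Atf3 was not well above background on these 4 arrays. None of 8 passed the test, against 3.11% of all genes, and at an unadjusted p below 0.05 there were 4 members (Batf, Fos, Fosl2 and Junb) and 3595 genes (17.7%). Batf came closest, with a mean level of 1.80 in DP and 3.75 in CD4SP and a difference of 1.94 (SE 0.40, adjusted p = 0.0705). Both CD4SP arrays lay above both DP arrays in Batf, Fos, Fosl2 and Junb, with fitted differences of 1.18 (SE 0.34) for Fos, 2.11 (SE 0.80) for Fosl2 and 0.98 (SE 0.36) for Junb. Jun and Jund differed by 0.005 (SE 0.75) and 0.04 (SE 0.30). Batf passed the test under 4 alternatives, among them an intensity trend in the variance (adjusted p range over all alternatives 0.0104 to 0.528), and Fosl2 passed without either OT-I array (adjusted p = 0.0489 without the control array and 0.0489 without the CKO array). Marker lists differed over the same step: 6 of 7 mature thymocyte markers were called higher in CD4SP (median 5.11), 1 of 8 DP-stage markers was called lower (median -4.62), and all 8 myeloid markers tested had a positive difference (median 1.44, none called). The log2 sum of the 9 myeloid markers was 6.04 and 5.62 on the DP arrays and 6.51 and 6.15 on the CD4SP arrays. Of 7 dendritic cell genes tested, from a list added after values were seen, 6 had a positive difference (median 1.59, 1 called). The part of these lists in the member differences was not tested.

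Atf3 was the member that passed the test between populations, and it stood apart in the CD8SP cells of mice without the OT-I receptor. It entered the test through those 2 arrays alone, since it was well above background on no other, so a test of it could only find CD8SP higher. The levels elsewhere were -5.41 and -4.48 (DP control and CKO), -4.61 and -4.71 (CD4SP), -4.87 and -4.78 (OT-I) and -5.42 (TCRβ-negative), which are not well above background. Against the lowest signal that counted as well above background on each array, the CD8SP mean was at least 3.96-fold higher than DP, 3.20-fold higher than CD4SP, 2.83-fold higher than OT-I CD8SP and 4.22-fold higher than the TCRβ-negative array. The adjusted p was 0.0103 for CD8SP minus DP, where 1 of 8 members and 3.46% of genes (2.42% higher) were called. It was 0.0358 for CD8SP minus CD4SP (1 of 8, against 0.39%) and 0.0363 for OT-I CD8SP minus CD8SP (1 of 8, against 0.237%, with 0.0394% higher and 0.197% lower).

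These 3 calls were lost under several alternatives while the direction held. With slide as a block the adjusted p was 0.102, 0.264 and 0.217. With a normexp background correction, which shrinks differences of dim probes, the differences were 0.79, 0.68 and -0.59 (adjusted p = 0.0666, 0.26 and 0.581). Without the DP control or the DP CKO array the CD8SP minus DP call was lost (adjusted p = 0.103 and 0.0654), and without any 1 DP or CD4SP array so was CD8SP minus CD4SP (0.0856 to 0.259). The OT-I call was lost without any 1 array of the DP, CD4SP or OT-I pairs (0.0893 to 0.138). Without either CD8SP array Atf3 was not tested. Within slide 1, the CD8SP control array was at least 3.39-fold above the DP control and at least 1.97-fold above the CD4SP control array, and within slide 2 the CD8SP CKO array was at least 3.45-fold above the OT-I CKO array, by the same lower bound.

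**Figure D3:**
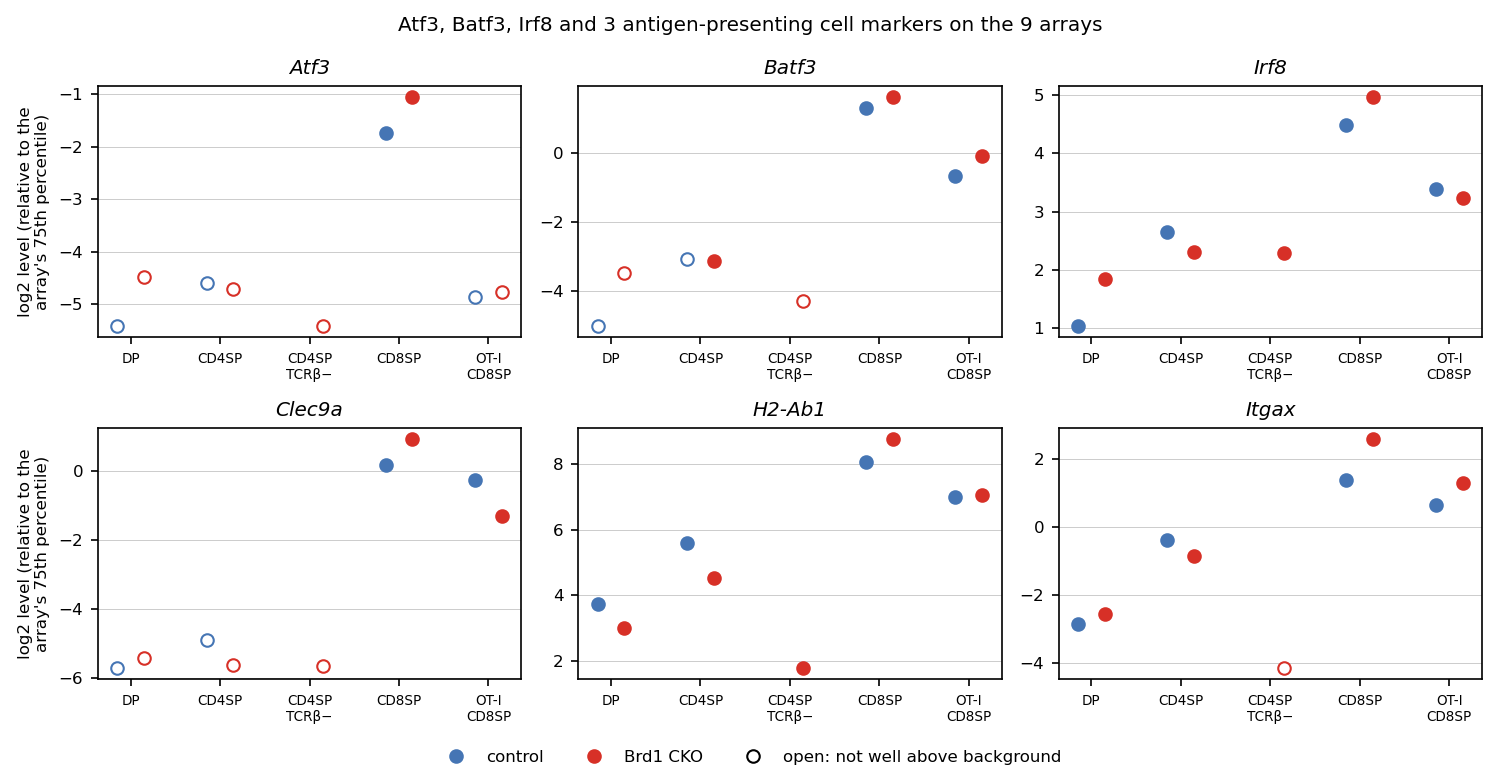
Log2 level (y axis, relative to the 75th percentile of the array) of 6 genes on the 9 arrays. They are Atf3, the Batf relative Batf3, Irf8 and the antigen-presenting cell markers Clec9a, H2-Ab1 and Itgax. Blue is control, red is CKO, and open points were not well above background. All 6 genes have their highest points on the 2 CD8SP arrays, and only Atf3 is open on both OT-I arrays.

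Several transcripts of dendritic cells had their highest levels on the same CD8SP arrays. Batf3, a Batf relative needed for cross-presenting dendritic cells that carry CD8, had levels of 1.29 and 1.61 there, -0.68 and -0.08 on the OT-I arrays and -5.0 to -3.07 elsewhere. It was at least 28.4-fold higher in CD8SP than in DP (limma adjusted p = 0.00803) and was called against CD4SP too (adjusted p = 0.0292), where 1 of 2 arrays measured it. Irf8, a factor of the same cells and of B cells, was 3.28 higher in CD8SP than in DP (SE 0.37, adjusted p = 0.0144), and Itgax, which encodes CD11c, was 4.69 higher (SE 0.43, adjusted p = 0.0095). Like those of Atf3, the calls of Batf3, Irf8 and Itgax were lost with slide as a block and without the DP control or the DP CKO array.

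Of 8 dendritic cell genes listed after values had been seen, 6 were well above background on the CD8SP control array and 7 on the CD8SP CKO array. On the other arrays the count was 5 to 7, with 7 on the OT-I control array. The dendritic cell receptor Clec9a had levels of 0.20 and 0.92 on the CD8SP arrays and -0.27 and -1.31 on the OT-I arrays, and was not well above background elsewhere. The MHC class II gene H2-Ab1 had 8.07 and 8.76 on the CD8SP arrays, 7.01 and 7.07 on the OT-I arrays and 1.78 to 5.59 elsewhere. Xcr1 was well above background on the CD8SP CKO array only. Clec9a, Flt3, H2-Ab1, H2-Eb1 and Cd74 had their 2 highest levels on the CD8SP arrays, whereas Siglech was highest on the DP control array (9.06, against 8.13 and 8.69 on CD8SP) and Zbtb46 on the OT-I control array (-2.13, against -2.53 and -3.13 on CD8SP). Zbtb46 was not well above background on either CD8SP array or on the OT-I CKO array, and was well above background on all others. The log2 summed level of the 8 was 9.90 and 10.4 on the CD8SP arrays and 8.62 to 9.53 on the others, where the Siglech probe alone had 8.45 to 9.06. Of 9 myeloid markers, 5 and 4 were well above background on the CD8SP arrays, with log2 sums of 6.25 and 6.88 against 5.44 to 6.51 elsewhere, and Lyz2, Cd14, Adgre1 and C1qa had levels of -3.20 or lower there. Tyrobp, an adaptor gene of myeloid and NK cells on that list, had 4.13 and 5.54 on the CD8SP arrays and 0.11 to 3.97 elsewhere, and Itgax is on that list too. The part of such cells in the Atf3 signal was not tested.

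The other members differed less between CD8SP and DP or CD4SP. Batf was 1.32 higher in CD8SP than in DP (SE 0.40, adjusted p = 0.135) and Fosl2 1.84 higher (SE 0.80, adjusted p = 0.267). Junb had a CD8SP minus CD4SP difference of -1.23 (SE 0.36, adjusted p = 0.305), with 0.10 and 1.33 as the mean levels. Stage markers differed too. Medians of CD8SP minus CD4SP were 2.58 for DP-stage markers (7 of 8 positive) and 2.66 for proliferation markers (8 of 8), none called. DP-stage log2 sums were 9.81 and 8.95 on the CD8SP control and CKO arrays, and 6.34 and 7.15 on the CD4SP arrays. Proliferation sums were 8.19 and 6.77, against 4.79 and 5.04. Against DP, 6 of 7 mature markers were called higher. What part these markers had in the member differences was not tested. Between OT-I and other CD8SP cells the 7 members other than Atf3 had fitted differences of -0.04 (Batf) to 0.71 (Fos, SE 0.34, adjusted p = 0.808). Under the scaling on probes well above background everywhere, CD8SP minus CD4SP called 7 genes higher and 8 lower, against 53 and 26 in the main scaling, the all-gene median moved from 0.04 to -0.18, and Atf3 had an adjusted p of 0.0543.

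The TCRβ-negative CD4SP array had the lowest level of all 9 arrays in Jun, Jund, Batf and Fosl2, with Fosl2 not well above background there. The 7 members measured on it or on the CD4SP arrays were lower there than the fit gives for CD4SP cells, with a median difference of -1.47 against 0.002 over all genes tested, and Atf3 was not well above background on these arrays. None of 8 passed the test, against 1.41% of genes (0.232% higher and 1.17% lower), and at an unadjusted p below 0.05 there were 4 members (Batf, Fos, Fosl2 and Junb) and 3392 genes (16.7%). This array has no control, so the fit takes the genotype effect of the other populations for it.

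Batf had the lowest adjusted p of the 8, with a difference of -2.73 (SE 0.51, adjusted p = 0.0736) and a range over the alternatives of 0.0154 to 0.253. Junb differed by -1.91 (SE 0.46, adjusted p = 0.131) and Fos by -1.47 (SE 0.43, adjusted p = 0.182). Fosl2 was at least 7.44-fold lower than the CD4SP mean, with an adjusted p of 0.153 that became 0.0387 and 0.0388 without the OT-I control or CKO array. Against the CD4SP CKO array on the same slide, the array of the same genotype, the values were lower by 2.44 for Batf, 1.72 for Junb, 1.28 for Fos and 1.32 for Fosb. Jun and Jund had differences of -0.93 and -0.65 there. The CD4SP mean of Fosl2 joins levels of 0.05 (control) and -1.20 (CKO). Against the CKO level alone its bound is smaller, as the lowest signal counted as well above background on the TCRβ-negative array was -3.47. Set against DP cells, Fosl2 was at least 1.73-fold lower and the 6 other members measured had negative differences of -1.30 (Jun) to -0.14 (Fosb), and 0 of 8 members and 0% of genes passed, with 0 members and 334 genes at an unadjusted p below 0.05.

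**Figure D4:**
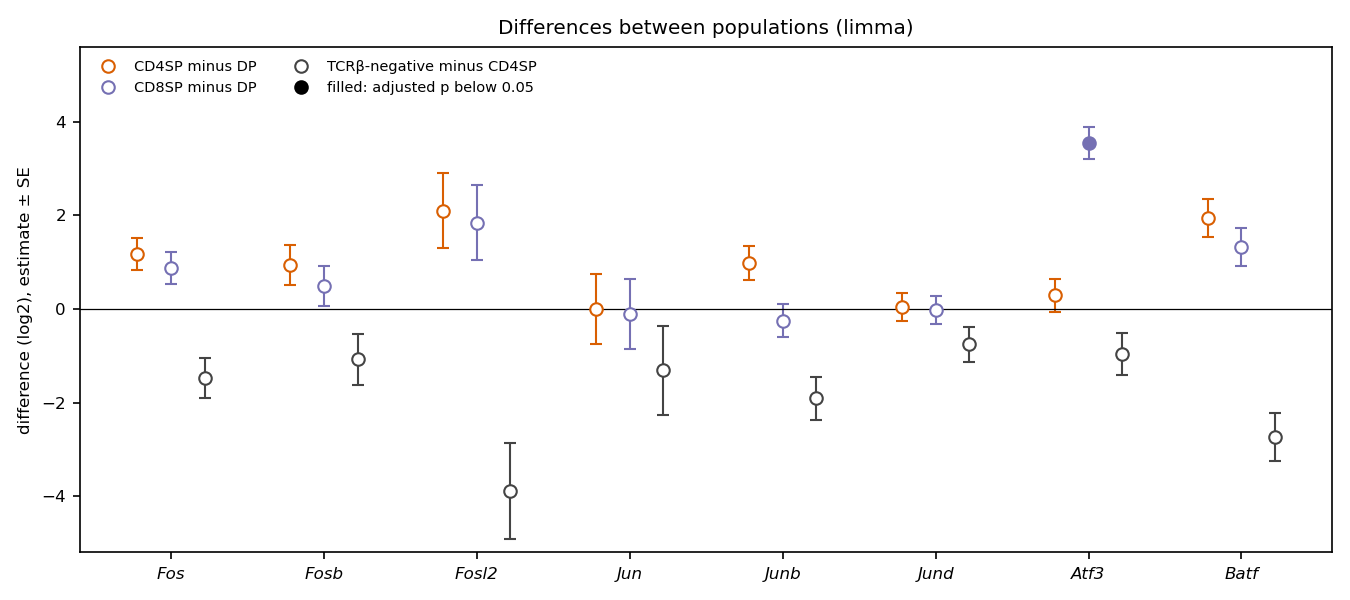
Fitted differences between populations (y axis, log2, with SE) of the 8 genes for CD4SP minus DP (orange), CD8SP minus DP (purple) and TCRβ-negative minus CD4SP (dark grey). A filled point has an adjusted p below 0.05, which only Atf3 in CD8SP minus DP reached, and the grey points lie below 0. The orange and grey points of Atf3 compare arrays on which it was not well above background.

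Stage markers moved with the same array. Against CD4SP, none of the 7 mature thymocyte markers was higher on the TCRβ-negative array and 5 were called lower (S1pr1, Klf2, Ccr7, Ms4a4b and Gimap3), with log2 sums of 6.05 there and 9.49 and 9.71 on the CD4SP arrays. Of 8 DP-stage markers 7 had a positive difference (median 5.2, none called), with log2 sums of 10.9 against 6.34 and 7.15. All 8 proliferation markers had a positive difference (none called), with sums of 8.11 against 4.79 and 5.04. None of 8 myeloid markers tested was higher (median -2.05), and Lyz2 (-3.17, adjusted p = 0.0327) and Itgax (-3.74, adjusted p = 0.0441) were called lower, with log2 sums over the 9 myeloid markers of 5.44 against 6.51 and 6.15. None of 7 dendritic cell genes tested was higher (median -2.37). The log2 sums of the 8 listed were 8.64 there and 8.95 and 9.11 on the CD4SP arrays, and H2-Ab1 alone had 1.78 against 5.59 and 4.53. Their part in the member differences was not tested.

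The immediate early genes outside AP-1 followed a like order of populations. Of 25 listed, 23 were tested. From DP to CD4SP 18 of 23 had a positive difference (median 0.94), and 2 rose: Egr1, a zinc finger factor induced by receptor signalling, by 1.60 (limma adjusted p = 0.0398) and Nr4a3, a nuclear receptor of the same kind, by at least 4.45-fold (adjusted p = 0.0368). Nr4a3 entered the test through the 2 CD4SP arrays, the only ones on which it was well above background, so a test of it could only find CD4SP higher. On the TCRβ-negative array 20 of 23 were lower than in CD4SP (median -0.84), and 4 fell, with log2 differences of -2.33 for Egr1, -2.47 for the phosphatase gene Dusp1 and -2.98 for Gadd45b, and with Nr4a3 at least 5.01-fold lower (adjusted p = 0.0442, 0.0409, 0.0461 and 0.037), of which the Nr4a3 call has the same limit. The 4 calls on the TCRβ-negative array were lost under quantile normalization, with slide as a block and without the DP pair. They were also lost without any 1 DP, CD4SP or CD8SP array. In the genotype effect 20 of 23 were positive (median 0.36) and none was called. Dusp2, which dephosphorylates MAP kinases, had the largest positive estimate at 1.37 (SE 0.22, limma adjusted p = 0.13). By pair the CD4SP arrays stood apart, with 10 of 23 positive (median -0.04), against 15, 18 and 17 of 22 in DP, CD8SP and OT-I. Dusp5 fell from DP to CD8SP by 2.75 (adjusted p = 0.0144), the single call of the list there, with 1 of 2 CD8SP arrays measuring it.

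The list of T cell AP-1 targets and partners had the highest median genotype estimate of the 7 gene groups tested besides the cell markers. It joins genes that AP-1 and NFAT are known to drive with genes listed as partners or competitors (Nfatc1, Nfatc2, Irf4, Irf8 and Bach2). Of 18 listed, 14 were tested, 13 had a positive estimate (median 0.77, against -0.04 over all genes) and none was called. The pairs did not share this direction: the median was 0.92 in DP (12 of 12 positive), -0.35 in CD4SP (6 of 17 positive), 1.36 in CD8SP (13 of 14) and 1.57 in OT-I (11 of 14). The largest estimates were those of Ccl3 (2.79, limma adjusted p = 0.287), Ifng (2.27, adjusted p = 0.352) and Ccl4 (1.98, adjusted p = 0.208), a pair of chemokines and a cytokine. Ccl3 was well above background on 3 arrays only, the CD4SP, CD8SP and OT-I CKO arrays. It entered the test through CKO arrays alone, so a test of it could only find CKO higher, and its estimate takes in control values below background. Irf4, the partner of Batf, rose from DP to CD4SP by 3.46 (adjusted p = 0.0375) and Bach2, which competes for AP-1 sites, by 3.59 (adjusted p = 0.0426), as 2 of 14 called. From DP to CD8SP, Xcl1 (adjusted p = 0.0421) and Irf8 were called. Xcl1 had levels of 3.29 and 2.58 on the CD8SP arrays and -1.42 on the DP CKO array, and was not well above background on the DP control array. All 14 were lower on the TCRβ-negative array than in CD4SP (median -3.42), with none called. Il2, Il4 and Csf2 were well above background on the CD4SP control array alone, and so were the NK cell receptor genes Klrb1c (1.41) and Klra8 (1.54); 4 of 5 NK and NKT markers were so on that array and 1 or 2 of 5 on every other. The part of such cells in the CD4SP values was not tested.

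**Figure D5:**
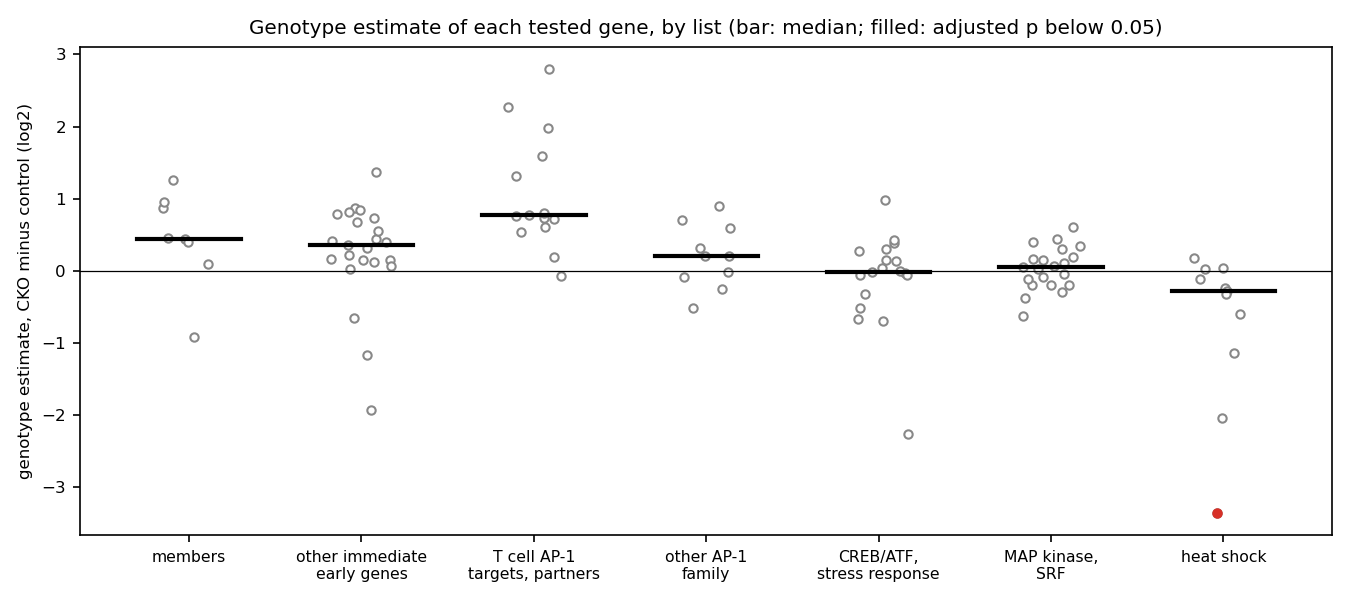
Genotype estimate (y axis, CKO minus control, log2) of every tested gene in the members and in 6 related lists (x axis), with the list median as a bar. Filled points have an adjusted p below 0.05, and Bag3 among the heat shock genes is the only one, a call lost with slide as a block. The medians run from 0.77 for the T cell targets and partners to -0.28 for heat shock.

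The kinases and serum response factors upstream of Fos, with 21 of 21 tested, had a genotype median of 0.06 and no call in any of the 7 comparisons. Mapk3 (-0.62, adjusted p = 0.411) and Map2k7 (0.61, adjusted p = 0.46) had the largest estimates. The CREB, ATF and integrated stress response genes, 18 of 20 tested, had a median of -0.02 and no call in any comparison. Among them Ppp1r15a, which ends the stress block on translation, had 0.98 (adjusted p = 0.27), and Atf4, the factor that drives Atf3 under amino acid stress, had 0.03 (adjusted p = 0.956). Asns, an Atf4 target, had -2.26 (adjusted p = 0.244) and was not well above background on 3 of 4 paired CKO arrays.

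Of 12 other AP-1 family and partner genes, 10 were tested and none was called by genotype (6 positive, median 0.21). Among 11 heat shock genes tested, 3 had a positive genotype estimate (median -0.28), and Bag3, a co-chaperone of Hsp70, was called with -3.35 (adjusted p = 0.0283). Its control levels were -0.26, -0.22, 0.21 and 0.29, and its CKO levels -4.18, -2.88, -2.77 and -3.56, of which the CD4SP and CD8SP values were well above background. The Bag3 call was lost with slide as a block and without the DP or the CD8SP pair. It was also lost without any 1 DP, CD4SP or CD8SP array. The inducible Hsp70 gene Hspa1a had an estimate of -1.14 (adjusted p = 0.654), with lower CKO levels in DP, CD4SP and CD8SP and a higher one in OT-I (4.54 against 1.75).

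Over the 9 arrays the members did not share 1 pattern, and the correlations that follow are descriptions over arrays that share slides and scaling. Fos and Fosb were the most alike (Pearson r = 0.85, 9 arrays), followed by Fosl2 and Batf (0.79) and Fos and Batf (0.75). Jun had r of -0.50 to Fosb, -0.07 to Fos and 0.61 to Fosl2. Among 9803 named genes well above background on all 9 arrays, the gene most like Fos was Uckl1 (r = 0.98), then Tyk2 and Agpat3 (both 0.97), and the gene most like Fosb was Dbnl (0.97), then Fam3a (0.93) and Vps41 (0.92). Fosl2 was most like Tpt1, Card19 and Npc2 (0.96 each) and Batf most like Gimap7, Dnajb2 and Tes (0.97, 0.97 and 0.96). Junb was most like Tmem50a, Fbxl17 and Sertad1 (0.96 each), and Jund most like Dedd2, Dyrk2 and Sft2d3 (0.95 each). Jun had no gene above 0.88 (Gm19668, Sart1 and Lipt1, 0.88 each). Atf3 was most like Cxcl16, a chemokine gene of antigen-presenting cells, at 0.97, then Tm4sf5 (0.95) and Tifa (0.93), but 7 of its 9 values were not well above background, so these correlations rest on the 2 CD8SP arrays.

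The spread left by the fit is given here beside the gaps between neighbours in the order of levels. It measures how genotype differences vary between populations, not the spread of replicate arrays. It therefore cannot decide whether neighbouring arrays differ. This residual SD, moderated by limma over all genes, was smallest for Jund (0.30) and largest for Fosl2 (0.80) and Jun (0.75). In the order of the 9 arrays, the 8 gaps between neighbours were all below the residual SD for Jun, 7 of 8 for Jund, 6 for Fosl2, 5 each for Fos, Fosb and Batf, and 4 for Junb. Atf3 has no such order, since 2 arrays measured it. In Fos and Fosb the widest gap set the DP control array below the 8 others, by 0.90 and 0.95.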

How the data were processed

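RNA of 9 sorted thymocyte samples was measured, 1 array each. The deposited scanner files hold processed signal intensity per spot from 1-colour Cy3 arrays (Agilent Feature Extraction 10.7.1.1, design 028005, per the file headers), whereas the labels' protocols describe a biotin-labelled cRNA method. The deposited series table holds that intensity divided by the 75th percentile of each array, as its comparison with the scanner values showed, and served as an alternative. Control spots and 144 probes with outlier flags were left out, 55537 probes were kept and 26715 were named through RefSeq accessions. Log2 intensity minus its 75th percentile was used, a gene was represented by its brightest probe, and a gene needed 2 arrays well above background. limma 3.58.1 (R 4.3.3) fitted population and genotype additively over 9 arrays (3 residual degrees of freedom), with Benjamini-Hochberg adjustment and a threshold of 0.05. The p-values measure the spread of differences between populations, not between replicate samples.

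The genes named are the 8 members, the called or largest genes of the related lists, and 3 genes most correlated with each member. The members and lists were chosen with earlier results of these data known, and the dendritic cell list was added after values were seen. Single values of some listed genes are not reported here. A bound ("at least N-fold") compares the brighter mean with the dimmest signal that still counted as above background on each dim array. The model script was tested on simulated data. Alternatives covered scaling, background correction, the filter, probe averaging, slide as a block, an intensity trend and leaving out arrays. Normexp used median signals with an offset of 50. Figures were drawn with matplotlib 3.10.9.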

Additional observations from a re-analysis of the deposited data

Results flagged for a closer look

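Jun was singled out because its CKO minus control difference pointed one way in the OT-I pair and the other way in each of the other 3 pairs. It was 0.82 in OT-I cells, -2.36 in DP, -1.67 in CD4SP and -0.46 in CD8SP cells (log2). The difference between the OT-I pair and the mean of the others was 2.32 (SE 0.81), with an adjusted p of 0.536 in limma over all 20282 genes, of which none passed. Receptor, age and slide differ together in this comparison and cannot be told apart.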

How the results depend on the processing

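The labels give no replicate numbers to use as a block. The population term of the fit sets each of the 4 paired CKO arrays against its own control, so the genotype estimate is a comparison within pairs. No member was called by genotype under any of 23 alternatives, and of 178 alternative values for the 8 genotype estimates 173 kept direction and side of the threshold. The other 5 are Fosl2, whose 0.10 became -0.17 with the mean of its probes, -0.59 without the OT-I pair or either OT-I array, and -0.52 on slide 1 alone, and ranged from -0.59 to 0.55 over single arrays left out. Alternatives chosen after seeing the data were normexp on median signals, slide 1 alone, single arrays left out and the OT-I term.

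Counts of genes called moved widely; the cause was not tested. Genotype (57 genes) gave 32 with scaling on probes above background everywhere, 29 with quantile normalization, 96 without the filter, 20 with the filter on all arrays, 0 with the slide block, 0, 2, 0 and 27 without the DP, CD4SP, CD8SP and OT-I pairs, and 172 on slide 1 alone. CD4SP minus DP (630) gave 952 with normexp, 285 with the slide block, 325 without the CD8SP pair, 1247 without the OT-I pair and 2083 on slide 1. CD8SP minus DP (702) gave 1534 with normexp, 0 with the slide block and 1356 with the intensity trend. CD8SP minus CD4SP (79) gave 15 with scaling on probes above background, 122 without the filter, 24 with the strict filter, 0 with the slide block, 0 without the DP pair, 185 without the OT-I pair and 1173 on slide 1. OT-I minus CD8SP (48) gave 29 with that scaling, 7 with the strict filter, 17 with the slide block, 27 without the DP pair and 22 without the CD4SP pair. TCRβ-negative minus CD4SP (285) gave 91 with that scaling, 0 with quantile normalization, 577 with normexp, 442 without the filter, 0 with the slide block, 0, 28 and 711 without the DP, CD8SP and OT-I pairs, 531 with the trend and 1439 on slide 1. TCRβ-negative minus DP (0) gave 18 without the filter and 1 with the strict filter. Leaving out 1 array gave 0 to 58, 0 to 1221, 0 to 878, 0 to 155, 15 to 48, 0 to 626 and 0 genes in the same order.

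Members called changed as follows. CD4SP minus DP (0) had 1 with normexp, the strict filter, the trend or without the OT-I pair, and 2 on slide 1. The Atf3 call of CD8SP minus DP became 0 with normexp, the strict filter, the slide block and slide 1 alone, that of CD8SP minus CD4SP also with scaling on probes above background, without the DP pair and with the trend, and that of OT-I minus CD8SP with normexp, the strict filter, the slide block, the trend and without the DP or CD4SP pair. Under the strict filter and on slide 1 Atf3 was not tested. TCRβ-negative minus CD4SP (0) had 2 with normexp and on slide 1, and 1 with the strict filter, the trend or without the OT-I pair. Leaving out 1 array gave 0 to 1 member in each of these 5 comparisons. Dim signal limits Atf3, Fosl2 and Fosb most.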
